A study of Homo sapiens with 15 samples.

Results

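Collagens are the secreted proteins that give tissues their tensile frame, and the family described here was every protein-coding gene of the count table whose symbol is COL, a number, A and a number. That rule found 44 genes among 58780 rows with a gene identifier, and it used names only, no measured value. Of the 44, 42 passed the filter on low counts and were tested, and COL5A3 and COL6A5 were not. The 44 fell into 8 classes: 11 fibrillar, 6 basement membrane, 10 fibril-associated (FACIT), 7 beaded filament and related, 4 transmembrane, 3 network-forming, 2 multiplexin and 1 anchoring fibril gene.

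The RNA came from atrial cardiomyocytes made from H7, an established human embryonic stem cell line with the wild-type genotype, in 5 groups of 3 libraries. The siRNA groups received a scramble siRNA, siRNA-1 against ATRNL1 or siRNA-2 against ATRNL1. The lentiviral groups received a control lentivirus or a lentivirus with the short isoform of ATRNL1, and the protocol text gives puromycin selection for transduced cells. All groups share 1 cell line, so no other genetic background was sampled, and the sources used here name neither the promoter of the lentiviral vector nor when cells were treated and harvested. ATRNL1 (attractin-like 1) codes for a protein of the cell membrane, and the series title ties it to atrial fibrillation.

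As background, collagen chains wind around each other into a rod-like helix, and chains of fixed partners assemble together. Fibrillar collagens such as types I, III and V form the rope-like fibres of connective tissue, type IV forms the sheet of the basement membrane that wraps each cardiomyocyte, and FACIT collagens sit on the surface of fibrils. In the heart, fibroblasts make most of the fibrillar collagen, and excess of it in the atrial wall is known as atrial fibrosis.

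Total counts ran from 37078568 to 108663135 per library, and collagens held 0.228% to 0.363% of them. Levels are given as CPM, counts scaled to TMM-adjusted library sizes, in the order of the libraries of a group, and a count of 0 allowed up to 0.0809 CPM in the shallowest library (3 counts, counting error only). ATRNL1 stood at 16.8, 13.8 and 15.3 CPM across scramble, 10.2, 9.02 and 8.25 across siRNA-1, 4.93, 5.41 and 4.61 across siRNA-2, 29.2, 27.5 and 27.1 across control lentivirus and 636, 926 and 727 across ATRNL1 lentivirus libraries, so its levels went the way of the labels in every library. Heart muscle markers (TNNT2, MYH6 and 6 others) summed to 35109 to 46413 CPM in all 15 libraries. The fibroblast list summed to 31.6 to 51.4 CPM with scramble, 65.4 to 74.5 with siRNA-1, 59.5 to 65.2 with siRNA-2, 42.4 to 44.4 with the control lentivirus and 42.0 to 56.3 with the ATRNL1 lentivirus. PDGFRA and POSTN made up nearly all of it, 5 of the 8 fibroblast markers passed the filter on low counts, and the means of TCF21, DPT and FAP were at most 0.0907 CPM in each group. Being bulk RNA, these data cannot tell fewer cells of a type apart from less RNA per cell.

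The scramble libraries differed from each other more than those of any other group, and every comparison with them carries that spread. Collagens summed to 3321, 2370 and 2896 CPM in scramble libraries 1, 2 and 3, against 2922, 2907 and 2796 with siRNA-1 and 3254, 3296 and 3162 with siRNA-2. The control lentivirus libraries summed to 2509, 2596 and 2557 CPM, and the ATRNL1 lentivirus libraries to 2682, 2785 and 2963. Scramble library 3 lay between the other two in 74.4% of 7254 genes above 20 CPM, where 33.3% would hold if no library were preferred, and 1 library of every other group did so in 40.3% to 57.4%. In 4 of the 5 groups 1 sample title carries a number that joins the numbers of the other two titles. Whether such a library was pooled from them is not stated in the labels, so each comparison was also run with 1 library fewer in every group, leaving out the one in between, and with scramble library 1 as the sole scramble library.

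Basement membrane collagens had the highest summed CPM of the classes in each group. These sums are not divided by gene length, so they do not rank the classes per kilobase. The 6 of them summed to 1342 ± 234 CPM with scramble (SD, n = 3), 1299 ± 13.3 with siRNA-1, 1437 ± 34.2 with siRNA-2, 1473 ± 36.1 with the control lentivirus and 1526 ± 80.8 with the ATRNL1 lentivirus. Fibrillar collagens summed to 822 ± 147, 755 ± 36.0, 767 ± 19.7, 443 ± 4.61 and 613 ± 41.3 CPM in the same order. FACIT collagens summed to 121 ± 21.4, 192 ± 19.5, 240.1 ± 2.03, 409 ± 13.5 and 341 ± 8.04 CPM, highest where the fibrillar sum was lowest. COL21A1 alone held 34.3, 76.7, 106, 232 and 171 CPM of these sums on average, so they largely follow 1 gene. In the plot of class sums the lentiviral libraries lie apart from all siRNA libraries for the fibrillar, FACIT, beaded filament, multiplexin and anchoring fibril classes. The sums are not corrected for GC content. For the control lentivirus against scramble, the GC-corrected fit described below called 3 fibrillar genes higher and 3 lower. It called 2 beaded filament genes higher and 2 lower, and 1 multiplexin higher and 0 lower. FACIT genes had 7 higher and 0 lower, and the anchoring fibril gene was lower.

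**Figure D1:**
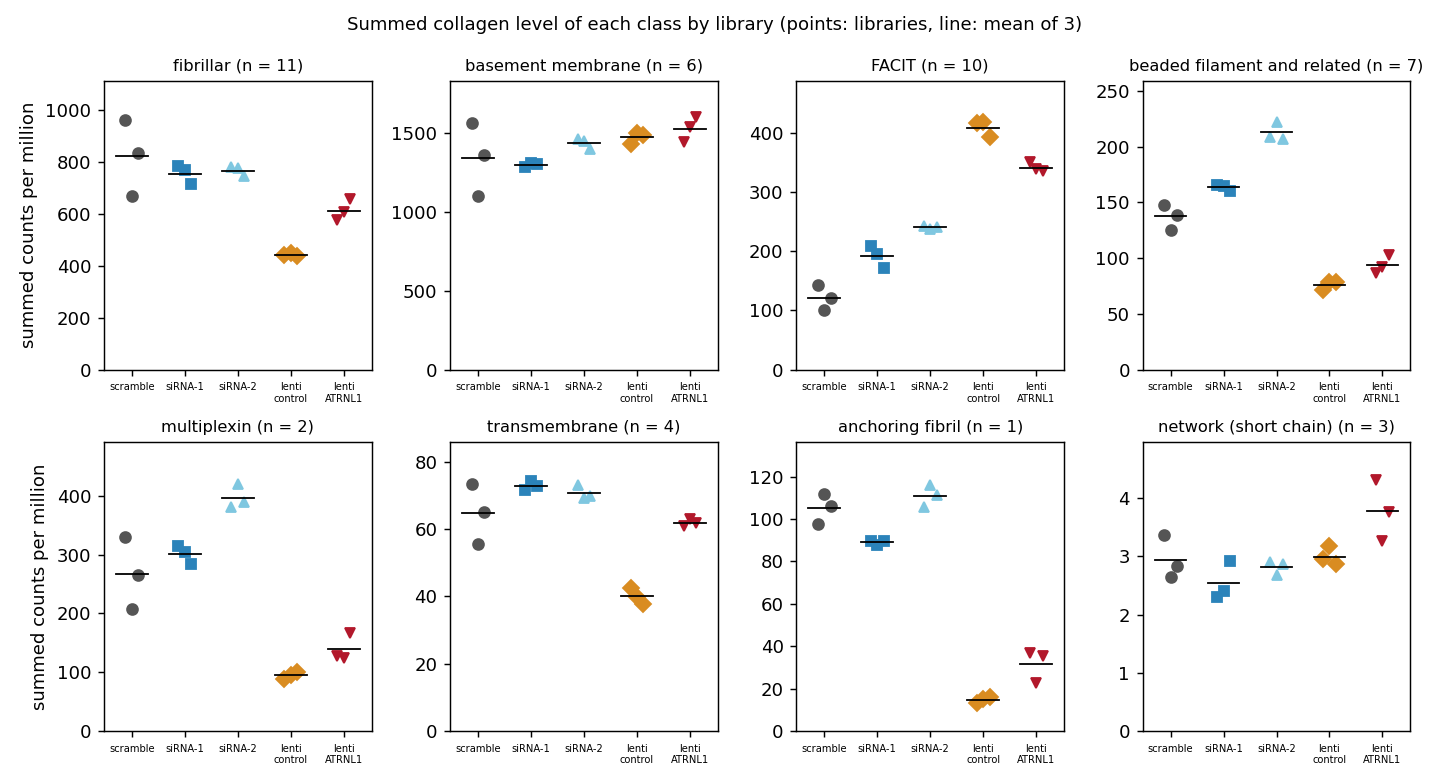
Each panel gives the summed level of 1 collagen class in CPM (linear axis from 0), with a point per library and a line at the mean of 3 libraries. FACIT sums reach 393 to 418 CPM with the control lentivirus against 100.0 to 143 with scramble, while the fibrillar sums are lowest with the control lentivirus. The sums are not corrected for GC content.

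Levels of different genes were compared per kilobase of merged exon length. With scramble the order was COL2A1 at 40.5, COL4A2 at 36.0, COL18A1 at 31.2 and COL4A1 at 27.8 CPM per kilobase, and the library ranges of each neighbouring pair in that order overlapped. COL2A1 is the fibrillar collagen best known from cartilage. Of the 6 cartilage markers 4 passed the filter on low counts, and the whole list summed to 3.90 to 9.70 CPM. Its members ACAN and MATN4 were at most 0.0894 CPM on average in each group. With siRNA-1 the order was COL4A2 at 35.4, COL18A1 at 35.1 and COL2A1 at 32.3 CPM per kilobase, again with overlapping neighbours. With siRNA-2 COL18A1 led at 46.3, clear of COL4A2 at 36.2, and COL2A1 came to 19.3 CPM per kilobase. With the control lentivirus COL4A1 led at 36.6, clear of COL21A1 at 32.7, whose range overlapped that of COL4A5 at 29.7. With the ATRNL1 lentivirus COL4A1 led at 37.5, clear of COL4A2 at 29.7 CPM per kilobase.

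**Figure D2:**
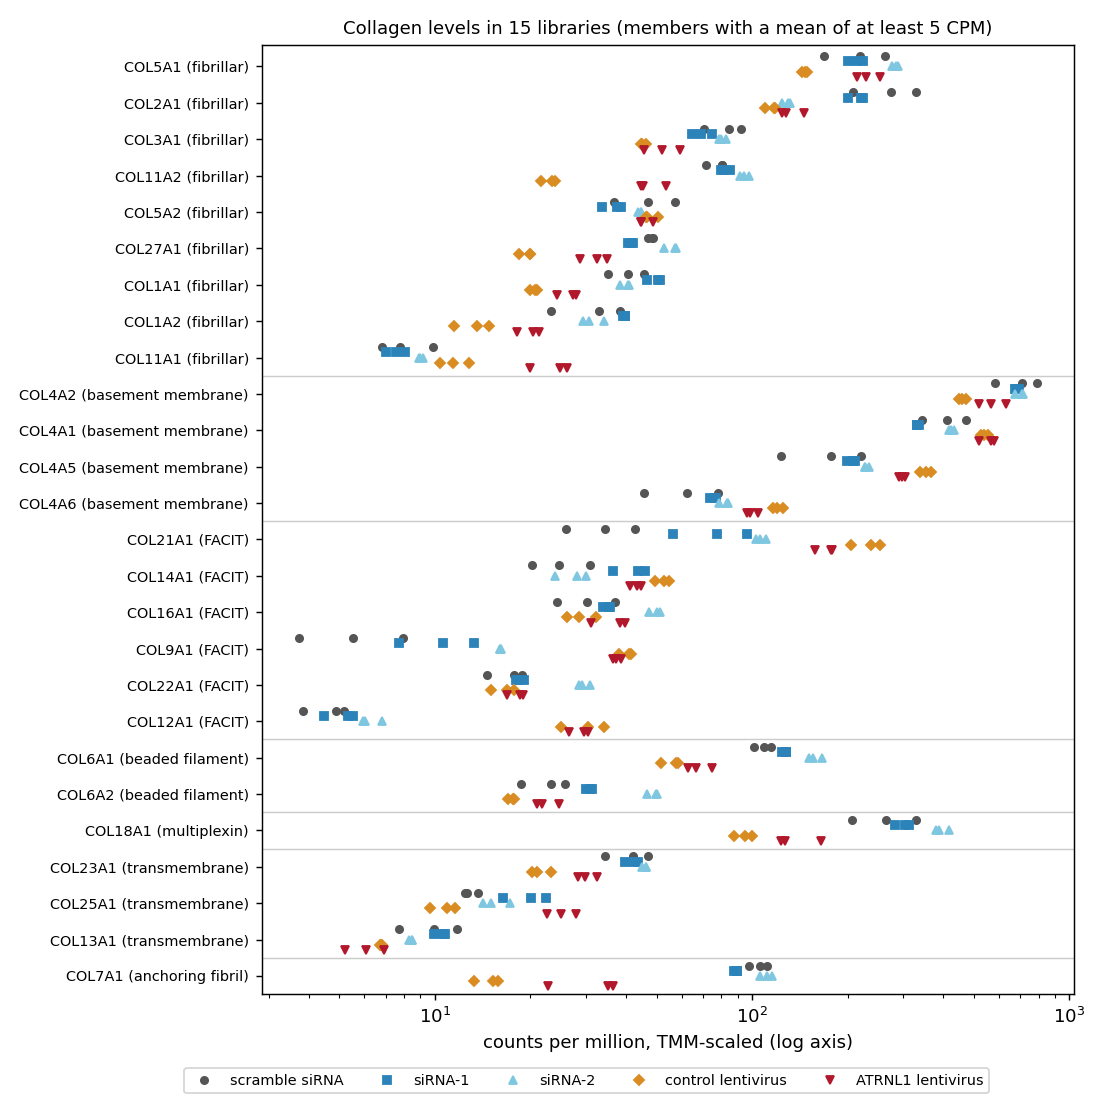
Level of each collagen with a mean of at least 5 CPM in the 15 libraries (x axis: CPM, log scale; rows: genes by class; markers: groups). COL21A1 and COL9A1 lie lowest with scramble and highest with the lentiviruses, and COL7A1 lies at 13.3 to 15.8 CPM with the control lentivirus against 97.4 to 112 with scramble.

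Knockdown with siRNA-1 was compared with scramble to ask what lower ATRNL1 did to these genes. COL21A1, COL9A1, COL14A1, COL6A2, COL25A1 and COL1A1 rose, and COL4A1, COL5A2 and COL2A1 fell. A gene was called, and is said to rise or fall, where edgeR's quasi-likelihood test gave a p under 0.05 after Benjamini-Hochberg adjustment across the whole table, and each "edgeR adjusted p" here is that value. These 9 of 42 (21.4%) stand beside 9.61% of all 24659 genes tested, and 6 of 42 higher stand beside 5.85% of all genes and 3 of 42 lower beside 3.76%. The median log2 fold change was 0.13 over the collagens and -0.01 over all genes. Of the 9 calls, 2 (COL14A1 and COL21A1) were also made with 1 library fewer in every group. The count fell to 5 without siRNA-1 library 2 and to 5 without scramble library 3, with scramble library 1 alone it was 1 higher and 4 lower, and without scramble library 1 it was 13 higher and 0 lower. COL21A1 was the 1 call of the 9 made in every alternative run for this comparison.

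With siRNA-2 more collagens moved, and almost all of them upward. Of 42, 15 rose and 1 fell (38.1%), beside 18.1% of all genes, of which 9.64% were higher and 8.48% lower. COL2A1 was the 1 that fell. The 15 that rose were 5 FACIT genes (COL21A1, COL9A1, COL22A1, COL16A1, COL12A1), 4 fibrillar genes (COL24A1, COL5A1, COL11A2, COL27A1), COL6A1 and COL6A2, COL4A5 and COL4A6, and both multiplexins, COL15A1 and COL18A1. The median was 0.24 over the collagens and 0.00 over all genes. With 1 library fewer in every group 8 calls were made, with scramble library 1 alone 9 (6 higher, 3 lower), and without scramble library 2 the count was 10. The calls of COL2A1, COL6A1, COL6A2, COL9A1, COL16A1, COL21A1 and COL22A1 were made in every alternative run. The siRNA comparisons share the scramble libraries, so movement in both is not independent evidence.

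The difference between the siRNAs was tested itself. Of 42 collagens, 11 were lower and 4 higher with siRNA-1 than with siRNA-2 (35.7%, beside 10.1% of all genes, 4.53% lower and 5.6% higher). FACIT genes made up 5 of the 15, and the fold changes ran from -0.82 for COL15A1 to 0.74 for COL2A1. This comparison uses no scramble library. ATRNL1 itself fell by 0.74 with siRNA-1 and fell by 1.61 with siRNA-2 on the log2 scale. Without siRNA-1 library 3 the count was 9, and with 1 library fewer in every group it was 4 (COL2A1, COL6A2, COL22A1 and COL27A1), the same 4 that were called in every alternative run.

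Overexpression was compared with the control lentivirus to ask what more ATRNL1 did. Of 42 collagens, 17 rose and 5 fell (52.4%, beside 37.1% of all genes, 19.1% higher and 18% lower), and 6 of the 17 were fibrillar. COL6A3, COL25A1, COL8A1, COL7A1, COL11A2 and COL11A1 at least doubled, each with a log2 fold change between 1.03 and 1.25. COL24A1, COL19A1, COL17A1, COL21A1 and COL14A1 fell. The median was 0.21 over the collagens and 0.00 over all genes. Fold changes here moved with the GC content of the transcript, with r = 0.30 over 32 collagens above 1 CPM and r = 0.30 over 14893 genes (Pearson, a description across genes, which share libraries). With library-wise GC curves taken off (a loess fit of each library's log2 level on GC content), 10 rose and 7 fell, so that 40.5% of the collagens stood beside 37.9% of all genes, near the background. With 1 library fewer in every group 12 were called. The 11 called in every alternative run were COL1A2, COL5A1, COL6A3, COL7A1, COL8A1, COL11A1, COL11A2, COL25A1 and COL27A1, which rose, and COL19A1 and COL24A1, which fell.

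The effect of overexpression less the mean effect of the siRNAs tests whether the treatments differed in effect. It was called in 22 of 42 collagens, 13 higher and 9 lower (52.4%, beside 32% of all genes, 16.5% higher and 15.5% lower). All 5 FACIT genes called were lower in this difference (COL21A1, COL9A1, COL19A1, COL14A1, COL22A1), and 7 of the 8 fibrillar genes called were higher. With GC curves taken off it was 10 higher and 12 lower (52.4%, beside 33.7% of all genes), and with 1 library fewer in every group 7 of each. COL2A1, COL6A3, COL7A1, COL9A1, COL11A1, COL11A2, COL21A1, COL24A1, COL25A1 and COL27A1 were called in every alternative run.

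**Figure D3:**
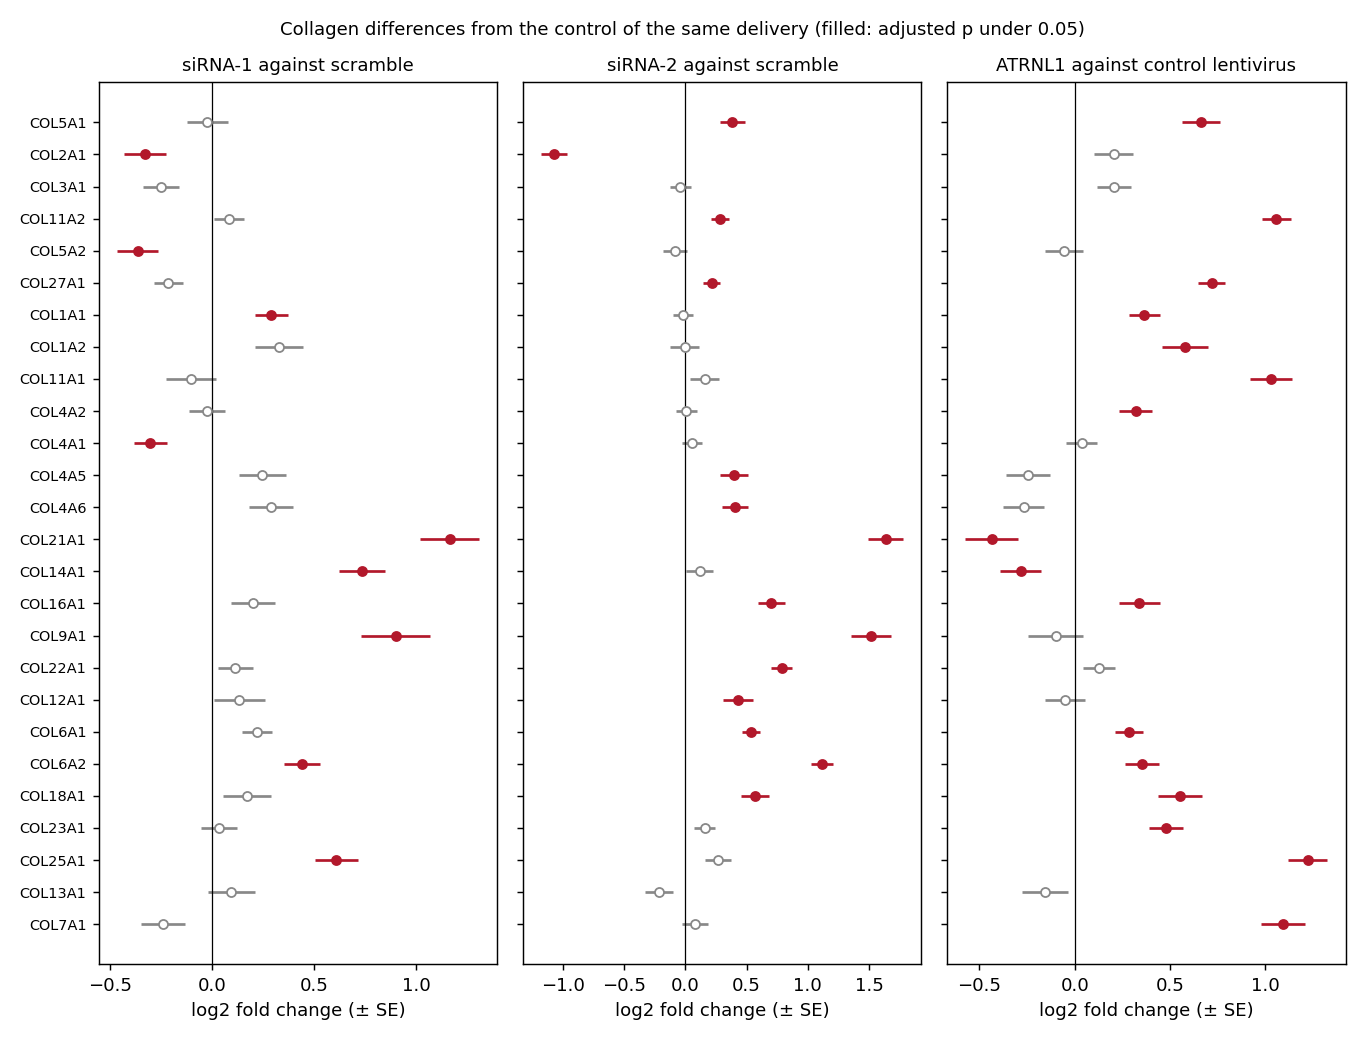
Log2 fold change (point) with its standard error (bar) for the collagens with a mean of at least 5 CPM, in the comparison named above each panel; each panel has its own x axis, and filled points are called. COL21A1 lies at 1.16 with siRNA-1, 1.64 with siRNA-2 and -0.43 with ATRNL1 overexpression.

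Among fibrillar collagens, type I is the main fibre of scar and tendon. COL1A1 (chromosome 17, 50183289 to 50201632, minus strand, GRCh38) stood at 45.7, 35.2 and 40.6 CPM across scramble, 51.2, 50.7 and 46.7 across siRNA-1, 40.6, 41.0 and 38.3 across siRNA-2, 20.0, 20.9 and 20.7 across control lentivirus and 24.3, 27.3 and 27.9 across ATRNL1 lentivirus libraries. The siRNA-1 libraries all lay above the scramble libraries, and both lentiviral groups lay below every siRNA-treated library in CPM. For the control lentivirus against scramble, COL1A1 came to 0.18 (edgeR adjusted p 0.0639) with GC curves taken off. Its log2 fold change was 0.29 (SE 0.08, edgeR adjusted p 0.0195) with siRNA-1, a call lost without siRNA-1 library 1 or 2, or scramble library 2 or 3 (edgeR adjusted p up to 0.152) and with scramble library 1 alone (0.11), and -0.02 (SE 0.08, edgeR adjusted p 0.918) with siRNA-2. Overexpression gave 0.37 (SE 0.08, edgeR adjusted p 0.00088), which came to 0.06 (edgeR adjusted p 0.593) with GC curves taken off. Its partner COL1A2 stood at 38.4, 23.3 and 33.0 CPM across scramble, 39.1, 39.8 and 39.7 across siRNA-1, 34.1, 30.7 and 29.3 across siRNA-2, 14.8, 13.5 and 11.5 across control lentivirus and 18.2, 21.2 and 20.4 across ATRNL1 lentivirus libraries. The 3 siRNA-1 libraries lay close together above the highest scramble library, and overexpression lay above its control in every library. Overexpression gave 0.58 (SE 0.12, edgeR adjusted p 0.000434), and siRNA-1 gave 0.33 (SE 0.12, edgeR adjusted p 0.0807), which did not pass. With GC curves taken off, COL1A2 gave 0.68 (edgeR adjusted p 6.4e-05), so of this pair it alone was called in both fits. With 1 library fewer in every group the COL1A1 overexpression value was 0.34 (edgeR adjusted p 0.0576).

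Type II and type III showed separate courses. COL2A1 stood at 328, 207 and 275 CPM across scramble, 223, 221 and 201 across siRNA-1, 132, 129 and 124 across siRNA-2, 109.5, 118 and 117 across control lentivirus and 124, 128 and 145 across ATRNL1 lentivirus libraries. In CPM the siRNA-2 libraries and both lentiviral groups all lay below the lowest scramble library. The siRNA-1 range overlapped the lower end of the scramble range. For the control lentivirus against scramble, COL2A1 came to 0.058 (edgeR adjusted p 0.656) with GC curves taken off. With siRNA-2 the log2 fold change was -1.07 (SE 0.10, edgeR adjusted p 6.07e-08), with siRNA-1 -0.33 (SE 0.10, edgeR adjusted p 0.0442), and the difference between them was 0.74 (SE 0.10, edgeR adjusted p 2.48e-05). The siRNA-1 call was lost without siRNA-1 library 1, 2 or 3, or scramble library 1 or 3 (edgeR adjusted p up to 0.352). It was also lost with GC curves taken off, at -0.31 (edgeR adjusted p 0.0545). With scramble library 1 alone the siRNA-1 value was -0.61. COL3A1, the partner of type I in elastic tissues, stood at 91.9, 70.7 and 84.8 CPM across scramble, 74.5, 69.1 and 64.9 across siRNA-1, 82.4, 78.4 and 79.8 across siRNA-2, 46.2, 44.99 and 44.5 across control lentivirus and 45.8, 59.1 and 52.0 across ATRNL1 lentivirus libraries. It passed in no comparison with a siRNA, where its log2 fold changes were -0.25 (SE 0.09, edgeR adjusted p 0.0807) and -0.04 (SE 0.09, edgeR adjusted p 0.824), nor with overexpression, at 0.21 (SE 0.09, edgeR adjusted p 0.0686). With GC curves taken off its siRNA-1 value was called (-0.27 (edgeR adjusted p 0.0312)).

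Type V and type XI chains sit in the core of fibrils and limit their width. COL5A1 stood at 262, 169 and 219 CPM across scramble, 224, 215 and 201 across siRNA-1, 285, 288 and 275 across siRNA-2, 147, 149 and 143 across control lentivirus and 214, 228 and 253 across ATRNL1 lentivirus libraries. The siRNA-2 libraries lay above every scramble library, and overexpression lay above its control in each library. Its log2 fold change was 0.38 (SE 0.10, edgeR adjusted p 0.00717) with siRNA-2, but 0.10 (edgeR adjusted p 0.691) with scramble library 1 alone, and the call was lost without scramble library 2 (edgeR adjusted p up to 0.0668). Overexpression gave 0.66 (SE 0.10, edgeR adjusted p 7.58e-06), and 0.38 (edgeR adjusted p 0.00407) with GC curves taken off. COL5A2, its usual partner, stood at 57.2, 36.7 and 47.1 CPM across scramble, 38.7, 37.4 and 33.6 across siRNA-1, 44.8, 44.6 and 43.6 across siRNA-2, 50.4, 46.6 and 46.3 across control lentivirus and 44.5, 48.7 and 44.7 across ATRNL1 lentivirus libraries. It fell with siRNA-1, at -0.36 (SE 0.10, edgeR adjusted p 0.0209), a call lost without siRNA-1 library 2 or 3, or scramble library 1 or 3 (edgeR adjusted p up to 0.194), and with overexpression it gave -0.06 (SE 0.10, edgeR adjusted p 0.709). With scramble library 1 alone its siRNA-1 value was -0.65 (edgeR adjusted p 0.000182). COL5A1 and COL5A2 were called together in no siRNA or overexpression comparison, and COL5A3 reached at most 0.0782 CPM in any library.

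COL11A1 and COL11A2 were among the 6 collagens that at least doubled with ATRNL1 overexpression. COL11A1 stood at 9.88, 6.81 and 7.74 CPM across scramble, 8.06, 7.52 and 7.04 across siRNA-1, 8.97, 8.89 and 9.19 across siRNA-2, 12.8, 11.4 and 10.4 across control lentivirus and 26.1, 19.9 and 24.7 across ATRNL1 lentivirus libraries. The ATRNL1 lentivirus libraries lay above all 12 others, at 19.9 to 26.1 CPM, and overexpression gave 1.03 (SE 0.11, edgeR adjusted p 4.2e-08). COL11A2 stood at 80.6, 71.5 and 80.5 CPM across scramble, 81.6, 85.0 and 79.8 across siRNA-1, 94.1, 97.8 and 91.5 across siRNA-2, 21.6, 23.9 and 23.4 across control lentivirus and 45.2, 44.6 and 53.7 across ATRNL1 lentivirus libraries. Overexpression gave 1.06 (SE 0.08, edgeR adjusted p 3.95e-11), yet its libraries stayed below all siRNA-treated and scramble libraries in CPM. For the control lentivirus against scramble, GC curves moved the COL11A2 value from -1.76 to -0.34 (edgeR adjusted p 3.04e-05). Neither siRNA gave a call for COL11A1, and COL11A2 rose with siRNA-2 by 0.28, a call lost without scramble library 2 (edgeR adjusted p up to 0.0560) and with scramble library 1 alone (0.22). GC curves left both overexpression calls, at 1.06 (edgeR adjusted p 1.77e-07) and 0.69 (edgeR adjusted p 4.12e-09), so the COL11A2 value moved by over 1.5 times.

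COL27A1 and COL24A1 belong to the fibrillar class as well. COL27A1 stood at 48.2, 48.7 and 47.0 CPM across scramble, 42.2, 41.5 and 40.5 across siRNA-1, 57.1, 57.4 and 52.6 across siRNA-2, 20.0, 18.4 and 20.0 across control lentivirus and 32.4, 28.7 and 34.8 across ATRNL1 lentivirus libraries. Overexpression lay above its control in every library and gave 0.72 (SE 0.07, edgeR adjusted p 1.3e-08), or 0.41 (edgeR adjusted p 1.65e-05) with GC curves taken off. With siRNA-2 it rose by 0.22, a call lost without siRNA-2 library 1 or 2, or scramble library 2 or 3 (edgeR adjusted p up to 0.138). With siRNA-1 COL27A1 went the other way, at -0.21, which was not called, and each siRNA-1 library lay below every scramble library. With GC curves taken off that value was called lower, at -0.19 (edgeR adjusted p 0.0392). COL24A1 was scarce, at 0.182 to 0.543 CPM with scramble and 0.693 to 0.815 with siRNA-2. Its overexpression libraries, at 0.385 to 0.699 CPM, all lay below the control lentivirus at 1.13 to 1.33. Overexpression gave a log2 fold change of -1.20 (SE 0.29, edgeR adjusted p 0.00185) and siRNA-2 one of 1.14 (SE 0.32, edgeR adjusted p 0.0138), and the difference of the overexpression and mean knockdown effects was -2.18 (SE 0.41, edgeR adjusted p 0.000174). The siRNA-2 call was lost without siRNA-2 library 1, or scramble library 2 or 3 (edgeR adjusted p up to 0.0833) and with scramble library 1 alone (0.47).

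The basement membrane chains COL4A1 and COL4A2 assemble together and are found in nearly every basement membrane. COL4A1 (chromosome 13, 110148963 to 110307233, minus strand) stood at 471, 344 and 413 CPM across scramble, 335, 331 and 331 across siRNA-1, 434, 424 and 416 across siRNA-2, 527, 552 and 538 across control lentivirus and 518, 577 and 564 across ATRNL1 lentivirus libraries. The siRNA-1 libraries, at 331 to 335 CPM, lay below every scramble library. Its log2 fold change was -0.30 (SE 0.08, edgeR adjusted p 0.019), a call lost without siRNA-1 library 1, 2 or 3, or scramble library 1 or 3 (edgeR adjusted p up to 0.178), and siRNA-2 gave 0.05 (SE 0.08, edgeR adjusted p 0.741). The siRNA-1 value was -0.50 (edgeR adjusted p 0.00154) with scramble library 1 alone. COL4A2, which spans 110305812 to 110513209 on the plus strand of the same chromosome, stood at 792, 583 and 708 CPM across scramble, 675, 693 and 680.0 across siRNA-1, 708, 714 and 673 across siRNA-2, 448, 472 and 459 across control lentivirus and 520.1, 568 and 633 across ATRNL1 lentivirus libraries. The siRNA libraries lay inside the scramble range, and overexpression lay above its control in each library. Overexpression gave 0.32 (SE 0.09, edgeR adjusted p 0.00499) for COL4A2, and -0.01 (edgeR adjusted p 0.914) with GC curves taken off, whereas COL4A1 gave 0.04 (SE 0.08, edgeR adjusted p 0.77). The annotated COL4A1 and COL4A2 genes overlap at their starts, and no source used here says whether counting used strand, so reads from the shared stretch may be split between them.

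COL4A5 and COL4A6 lie head to head on the X chromosome and make the basement membrane chains of smooth muscle and some epithelia. COL4A5 (X, 108439844 to 108697545, plus strand) stood at 221, 124 and 177 CPM across scramble, 199.6, 209 and 211 across siRNA-1, 233, 227 and 227 across siRNA-2, 338, 352 and 366 across control lentivirus and 304, 291 and 297 across ATRNL1 lentivirus libraries. COL4A6 (X, 108155607 to 108439497, minus strand) stood at 78.1, 45.8 and 62.4 CPM across scramble, 73.8, 77.1 and 76.4 across siRNA-1, 83.5, 84.1 and 78.9 across siRNA-2, 116, 119.6 and 125 across control lentivirus and 96.5, 98.7 and 104 across ATRNL1 lentivirus libraries. Both genes held the same order of libraries within the scramble group, library 1 highest and library 2 lowest, and both were highest with the control lentivirus. With siRNA-2 they rose by 0.40 and 0.41, and with scramble library 1 alone the values were 0.04 (edgeR adjusted p 0.894) and 0.06 (edgeR adjusted p 0.819). The COL4A5 call was lost without siRNA-2 library 1, or scramble library 2 (edgeR adjusted p up to 0.114), and the COL4A6 call without scramble library 2 (edgeR adjusted p up to 0.0682). Overexpression gave -0.24 (SE 0.11, edgeR adjusted p 0.0992) and -0.27 (SE 0.11, edgeR adjusted p 0.0514). Neither of these passed, and with GC curves taken off COL4A6 was called lower (-0.40 (edgeR adjusted p 0.00536)).

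The start sites of this pair lie 379 bases apart in RefSeq (GRCh38.p14), and those of the other type IV pairs 418 bases (COL4A4 and COL4A3) and 126 bases (COL4A1 and COL4A2). The 250 bases before the COL4A5 start, which fall wholly in that gap, are printed because these neighbours kept nearly 1 ratio in all 15 libraries, as given with the chain ratios. The COL7A1 and COL12A1 windows are printed because these genes gave the largest fall and one of the largest rises between the control lentivirus and scramble. That ranking is without GC correction. With GC curves taken off COL7A1 gave -1.23 and COL6A3 -2.19. Capitals mark matches to CCAAT, to the GC box GGGCGG and to the TATA motif TATAAA. Both strands were searched, so a match on the other strand shows as its reverse complement, and no motif holds another. The windows lie at chrX:108439588-108439837 (plus strand), chr3:48595330-48595579 (minus strand) and chr6:75206054-75206303 (minus strand), 5′ to 3′ on the gene's strand.
COL4A5: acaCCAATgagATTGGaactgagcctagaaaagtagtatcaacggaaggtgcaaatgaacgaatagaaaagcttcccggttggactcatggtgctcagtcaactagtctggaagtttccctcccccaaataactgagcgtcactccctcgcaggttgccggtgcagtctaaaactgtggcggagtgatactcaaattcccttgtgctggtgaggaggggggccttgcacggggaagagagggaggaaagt
COL7A1: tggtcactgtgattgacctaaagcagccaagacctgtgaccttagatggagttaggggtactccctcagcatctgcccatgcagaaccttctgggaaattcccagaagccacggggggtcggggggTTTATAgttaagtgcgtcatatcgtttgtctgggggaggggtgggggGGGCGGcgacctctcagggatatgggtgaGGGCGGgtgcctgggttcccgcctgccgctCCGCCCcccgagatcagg
COL12A1: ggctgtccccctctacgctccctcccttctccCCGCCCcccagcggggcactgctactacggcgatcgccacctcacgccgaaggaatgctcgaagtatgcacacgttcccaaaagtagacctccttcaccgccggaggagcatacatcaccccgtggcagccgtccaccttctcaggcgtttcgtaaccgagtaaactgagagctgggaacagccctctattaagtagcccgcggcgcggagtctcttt
The COL4A5 window holds 2 CCAAT matches, the COL7A1 window 3 GGGCGG and 1 TATAAA match, and the COL12A1 window 1 GGGCGG match. Of 44 listed start windows of 32 collagens, 12 (27.3%) hold CCAAT, 24 (54.5%) GGGCGG and 8 (18.2%) TATAAA. Of 35116 windows of the same length in the whole table, 32% hold CCAAT, 42.6% GGGCGG and 10.7% TATAAA. These matches describe the letters only.

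COL4A3 and COL4A4, chains of the kidney filter and lung, were scarce, with 21 to 94 and 40 to 124 counts per library. COL4A3 stood at 0.868, 1.17 and 0.837 CPM across scramble, 0.821, 0.543 and 0.997 across siRNA-1, 1.09, 1.03 and 1.01 across siRNA-2, 0.940, 0.830 and 0.839 across control lentivirus and 0.699, 0.680 and 0.770 across ATRNL1 lentivirus libraries. COL4A4 stood at 1.32, 0.892 and 1.10 CPM across scramble, 1.02, 1.32 and 1.27 across siRNA-1, 1.21, 1.296 and 1.16 across siRNA-2, 0.685, 0.779 and 0.933 across control lentivirus and 1.21, 1.44 and 0.962 across ATRNL1 lentivirus libraries. Of the pair COL4A4 alone was called in a siRNA or overexpression comparison, rising by 0.61 (SE 0.21, edgeR adjusted p 0.0211) with overexpression, a call lost without control lentivirus library 1 or 2, or ATRNL1 lentivirus library 2 (edgeR adjusted p up to 0.0864). Its libraries there did not overlap those of the control lentivirus.

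FACIT genes included the largest fold change among the collagens called with each siRNA, that of COL21A1. COL21A1, known from vessel walls (chromosome 6, 56056590 to 56394094, minus strand), stood at 42.8, 25.8 and 34.4 CPM across scramble, 96.0, 77.6 and 56.5 across siRNA-1, 106, 103 and 111 across siRNA-2, 253, 237 and 205 across control lentivirus and 178, 178 and 158 across ATRNL1 lentivirus libraries. Both siRNA groups lay above every scramble library, and the lentiviral groups lay above all siRNA libraries. Its log2 fold change was 1.16 (SE 0.14, edgeR adjusted p 6.29e-06) with siRNA-1 and 1.64 (SE 0.15, edgeR adjusted p 1.6e-08) with siRNA-2. With scramble library 1 alone these were 0.84 (edgeR adjusted p 0.00335) and 1.302 (edgeR adjusted p 5.44e-06). With overexpression it was -0.43 (SE 0.14, edgeR adjusted p 0.0154), a call lost without control lentivirus library 1 or 2, or ATRNL1 lentivirus library 3 (edgeR adjusted p up to 0.0915), with DESeq2 and with 1 library fewer in every group. The difference of the overexpression and mean knockdown effects was -1.83 (SE 0.19, edgeR adjusted p 3.52e-08).

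COL9A1 encodes a chain of type IX collagen, which coats cartilage fibrils and normally pairs with COL9A2 and COL9A3. COL9A1 stood at 7.92, 3.72 and 5.52 CPM across scramble, 13.3, 10.6 and 7.72 across siRNA-1, 16.2, 16.0 and 16.1 across siRNA-2, 38.0, 41.6 and 41.0 across control lentivirus and 37.3, 36.5 and 38.7 across ATRNL1 lentivirus libraries. The siRNA-2 libraries lay at 16.0 to 16.2 CPM, above every scramble library, while siRNA-1 overlapped the scramble range. Its log2 fold change was 1.51 (SE 0.16, edgeR adjusted p 2.65e-07) with siRNA-2 and 0.90 (SE 0.17, edgeR adjusted p 0.000746) with siRNA-1, and the siRNA-1 value was 0.41 (edgeR adjusted p 0.312) with scramble library 1 alone. COL9A2 stood at 0.369, 0.512 and 0.383 CPM across scramble, 0.391, 0.155 and 0.399 across siRNA-1, 0.462, 0.603 and 0.824 across siRNA-2, 0.159, 0.121 and 0.187 across control lentivirus and 0.243, 0.272 and 0.212 across ATRNL1 lentivirus libraries. COL9A3 stood at 0.847, 0.727 and 0.668 CPM across scramble, 0.782, 0.775 and 0.979 across siRNA-1, 1.10, 1.19 and 1.24 across siRNA-2, 0.191, 0.304 and 0.140 across control lentivirus and 0.370, 0.196 and 0.269 across ATRNL1 lentivirus libraries. The partners of COL9A1 stayed at or below 1.24 CPM in all libraries, and neither was called with a siRNA or with overexpression.

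COL14A1, COL16A1, COL22A1 and COL12A1 complete the better expressed FACIT genes. COL14A1, which binds fibrils of type I, stood at 30.9, 20.3 and 24.6 CPM across scramble, 36.3, 43.6 and 45.9 across siRNA-1, 30.0, 28.0 and 23.9 across siRNA-2, 49.3, 52.9 and 54.9 across control lentivirus and 43.2, 41.2 and 44.7 across ATRNL1 lentivirus libraries. The siRNA-1 libraries lay above every scramble library and every siRNA-2 library. It rose with siRNA-1, at 0.73 (SE 0.11, edgeR adjusted p 6.77e-05), gave 0.12 (SE 0.11, edgeR adjusted p 0.538) with siRNA-2, and the difference between the siRNAs was 0.62 (SE 0.11, edgeR adjusted p 0.000427). The siRNA-1 value came to 0.44 (edgeR adjusted p 0.0614) with scramble library 1 alone. Overexpression gave -0.28 (SE 0.11, edgeR adjusted p 0.0409), a call lost when any 1 of the 6 lentiviral libraries was left out (edgeR adjusted p up to 0.145).

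COL16A1 stood at 36.9, 24.2 and 30.3 CPM across scramble, 35.6, 35.3 and 33.9 across siRNA-1, 50.2, 51.2 and 47.1 across siRNA-2, 26.1, 28.4 and 32.1 across control lentivirus and 38.5, 31.1 and 39.8 across ATRNL1 lentivirus libraries. COL22A1, known from muscle-tendon junctions, stood at 14.6, 18.8 and 17.7 CPM across scramble, 18.1, 19.1 and 18.4 across siRNA-1, 28.5, 29.2 and 30.8 across siRNA-2, 15.1, 17.7 and 16.8 across control lentivirus and 16.9, 18.5 and 18.9 across ATRNL1 lentivirus libraries. Both were above all scramble and siRNA-1 libraries in each siRNA-2 library. With siRNA-2 they gave 0.70 (SE 0.11, edgeR adjusted p 3.4e-05) (COL16A1 0.41 with scramble library 1 alone) and 0.79 (SE 0.09, edgeR adjusted p 2.66e-07), and with siRNA-1 0.20 (SE 0.11, edgeR adjusted p 0.305) and 0.12 (SE 0.09, edgeR adjusted p 0.507). Overexpression gave 0.34 (SE 0.11, edgeR adjusted p 0.0153) for COL16A1, a call lost without control lentivirus library 1, or ATRNL1 lentivirus library 1 or 3 (edgeR adjusted p up to 0.0886), and -0.01 (edgeR adjusted p 0.932) with GC curves taken off. COL12A1, a collagen of tissues under tension, stood at 5.19, 3.83 and 4.88 CPM across scramble, 5.34, 5.53 and 4.46 across siRNA-1, 6.04, 5.92 and 6.82 across siRNA-2, 25.1, 30.4 and 34.1 across control lentivirus and 30.3, 26.6 and 29.4 across ATRNL1 lentivirus libraries. Its siRNA-2 value was 0.43 (SE 0.12, edgeR adjusted p 0.0127), lost without siRNA-2 library 3, or scramble library 2 (edgeR adjusted p up to 0.0875) and with scramble library 1 alone (0.26), and overexpression gave -0.05 (SE 0.10, edgeR adjusted p 0.742). The remaining FACIT genes were COL19A1, at 1.90 to 9.32 CPM, and COL20A1, at most 0.272 CPM. With overexpression COL19A1 fell by 0.75 on the log2 scale (SE 0.14, edgeR adjusted p 0.000102), from 8.92 to 9.32 CPM down to 4.94 to 5.78.

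Type VI collagen forms beaded filaments around cells, including heart muscle cells, from chains of COL6A1, COL6A2 and COL6A3. COL6A1 stood at 115, 101 and 109 CPM across scramble, 128, 128 and 124 across siRNA-1, 155, 167 and 151 across siRNA-2, 51.5, 58.4 and 57.6 across control lentivirus and 62.8, 66.6 and 75.0 across ATRNL1 lentivirus libraries. COL6A2 stood at 25.8, 18.7 and 23.2 CPM across scramble, 31.2, 30.8 and 29.8 across siRNA-1, 46.8, 50.0 and 49.9 across siRNA-2, 17.7, 17.1 and 17.8 across control lentivirus and 20.9, 21.7 and 24.6 across ATRNL1 lentivirus libraries. In both genes the libraries of scramble, siRNA-1 and siRNA-2 did not overlap and rose in that order, and the control lentivirus lay lowest in CPM. With GC curves taken off, both genes were instead called higher with the control lentivirus than with scramble, at 0.49 (edgeR adjusted p 2.48e-07) and 1.42 (edgeR adjusted p 1.93e-11). COL6A2 rose by 0.44 (SE 0.09, edgeR adjusted p 0.00139) with siRNA-1 and 1.12 (SE 0.09, edgeR adjusted p 2.37e-09) with siRNA-2, with a difference between the siRNAs of -0.68 (SE 0.09, edgeR adjusted p 7.26e-06). The COL6A2 siRNA-1 value was 0.25 (edgeR adjusted p 0.342) with scramble library 1 alone. COL6A1 gave 0.22 (SE 0.07, edgeR adjusted p 0.0579) and 0.54 (SE 0.07, edgeR adjusted p 6.34e-06). With GC curves taken off its siRNA-1 value was called higher, at 0.25 (edgeR adjusted p 0.00469). For COL6A1 and COL6A2 overexpression gave 0.29 (SE 0.07, edgeR adjusted p 0.00329) and 0.36 (SE 0.09, edgeR adjusted p 0.00233). These came to -0.09 (edgeR adjusted p 0.236) and -0.10 (edgeR adjusted p 0.394) with GC curves taken off.

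COL6A3, the third chain of the usual type VI molecule, was far scarcer. It stood at 3.86, 2.33 and 3.09 CPM across scramble, 2.99, 3.80 and 2.21 across siRNA-1, 3.23, 2.80 and 2.72 across siRNA-2, 0.478, 0.567 and 0.583 across control lentivirus and 1.06, 1.68 and 1.15 across ATRNL1 lentivirus libraries. Every overexpression library lay above every control lentivirus library, and the log2 fold change was 1.25 (SE 0.25, edgeR adjusted p 0.000219). COL6A6, another type VI chain, lay at 1.39 to 2.88 CPM, and COL28A1 and COL26A1 stayed at or below 0.924 CPM. COL6A5 reached at most 0.0868 CPM and was at 0 in 8 libraries.

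COL18A1 is the multiplexin whose end fragment is endostatin, and it is a component of basement membranes. It stood at 328, 206 and 264 CPM across scramble, 313, 302 and 283 across siRNA-1, 379, 418 and 387 across siRNA-2, 87.7, 95.1 and 99.9 across control lentivirus and 127, 123 and 165 across ATRNL1 lentivirus libraries. The siRNA-2 libraries lay above every scramble library, and both lentiviral groups lay below all siRNA-treated libraries in CPM. Between the control lentivirus and scramble the direction turned with GC curves taken off, from -1.50 to 0.38 (edgeR adjusted p 0.00508). The siRNA-2 log2 fold change was 0.57 (SE 0.12, edgeR adjusted p 0.000847), 0.25 (edgeR adjusted p 0.27) with scramble library 1 alone, and 0.17 (SE 0.12, edgeR adjusted p 0.445) with siRNA-1. Overexpression gave 0.55 (SE 0.12, edgeR adjusted p 0.000475), and 0.06 (edgeR adjusted p 0.693) with GC curves taken off. COL15A1, the other multiplexin, lay at 0.661 to 1.43 CPM with scramble and 1.97 to 2.58 with siRNA-2, a rise of 0.98 (SE 0.21, edgeR adjusted p 0.00155) that came to 0.60 (edgeR adjusted p 0.239) with scramble library 1 alone.

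Transmembrane collagens are anchored in the cell surface. COL25A1, the chain known from motor nerve endings and from plaques in the brain, stood at 13.7, 12.6 and 12.4 CPM across scramble, 16.3, 20.2 and 22.4 across siRNA-1, 17.2, 14.998 and 14.2 across siRNA-2, 11.6, 10.96 and 9.65 across control lentivirus and 24.9, 27.8 and 22.6 across ATRNL1 lentivirus libraries. The siRNA-1 libraries lay above every scramble library, and the ATRNL1 lentivirus libraries lay above all 12 others. The log2 fold change was 1.22 (SE 0.10, edgeR adjusted p 7.19e-10) with overexpression and 0.61 (SE 0.10, edgeR adjusted p 0.000292) with siRNA-1, so it was called higher both with less and with more ATRNL1. The siRNA-1 value was 0.52 (edgeR adjusted p 0.0656) with scramble library 1 alone, and siRNA-2 gave 0.27 (SE 0.10, edgeR adjusted p 0.0791). COL23A1 stood at 47.0, 34.3 and 42.0 CPM across scramble, 43.8, 42.6 and 39.7 across siRNA-1, 46.3, 44.9 and 46.3 across siRNA-2, 23.3, 20.96 and 20.3 across control lentivirus and 28.3, 29.7 and 32.4 across ATRNL1 lentivirus libraries. It gave 0.48 (SE 0.09, edgeR adjusted p 0.000104) with overexpression, and 0.03 (edgeR adjusted p 0.822) with GC curves taken off. COL13A1, a muscle and nerve junction collagen, stood at 11.7, 7.73 and 9.93 CPM across scramble, 10.6, 10.7 and 9.97 across siRNA-1, 8.49, 8.46 and 8.31 across siRNA-2, 6.79, 6.73 and 6.81 across control lentivirus and 6.89, 5.20 and 6.08 across ATRNL1 lentivirus libraries. No siRNA and no overexpression call was made for it, but with GC curves taken off overexpression gave -0.39 (edgeR adjusted p 0.0147). COL17A1, a collagen of skin cell anchors, lay at 0.797 to 1.29 CPM with the control lentivirus and 0.408 to 0.815 with overexpression, a change of -0.62 (SE 0.24, edgeR adjusted p 0.044) that was lost without control lentivirus library 2 or 3, or ATRNL1 lentivirus library 2 (edgeR adjusted p up to 0.313).

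COL7A1 builds the anchoring fibrils that tie basement membranes to the tissue below (chromosome 3, 48564073 to 48595267, minus strand). It stood at 97.4, 112 and 106 CPM across scramble, 89.8, 87.8 and 89.5 across siRNA-1, 106, 116 and 111 across siRNA-2, 13.3, 15.3 and 15.8 across control lentivirus and 36.6, 22.8 and 35.1 across ATRNL1 lentivirus libraries. The overexpression libraries all lay above the control lentivirus, with library 2 the lowest of the 3, and below every siRNA-treated library. The log2 fold change was 1.09 (SE 0.12, edgeR adjusted p 2.82e-08), and 0.68 (edgeR adjusted p 1.33e-05) with GC curves taken off, while the siRNAs gave -0.24 (SE 0.11, edgeR adjusted p 0.194) and 0.08 (SE 0.11, edgeR adjusted p 0.693). Among network collagens COL8A1, of vessel walls and the eye, lay at 0.526 to 0.816 CPM with the control lentivirus and 1.21 to 1.45 with overexpression, a rise of 1.15 (SE 0.26, edgeR adjusted p 0.000754). COL8A2 and COL10A1 stayed at or below 2.53 CPM and were called in none of the 6 comparisons. With GC curves taken off COL8A2 was called in 3 of them, at -0.76 (edgeR adjusted p 0.018) with overexpression, 1.37 (edgeR adjusted p 5.1e-05) for the control lentivirus against scramble and -1.10 (edgeR adjusted p 0.0109) in the difference of effects.

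The control lentivirus was set against scramble because the siRNA and lentiviral arms have separate controls. The largest rises were in FACIT genes: COL9A1 by 2.83, COL21A1 by 2.76 and COL12A1 by 2.69 on the log2 scale, with edgeR adjusted p of at most 7.38e-14. Of the 10 FACIT genes tested, 5 were called higher and 3 lower. COL7A1 fell by 2.83, COL6A3 fell by 2.50 and COL11A2 fell by 1.76, with edgeR adjusted p of at most 5.21e-10. Of 42 collagens, 10 were higher and 22 lower (76.2%, beside 63.6% of all genes, 30.3% higher and 33.2% lower). Vector, puromycin, siRNA reagent, handling and library differences cannot be told apart in this comparison. Smooth muscle and pericyte markers summed to 318 to 473 CPM with scramble and 902 to 916 with the control lentivirus, with 4 of 7 called higher and 3 lower, or 6 higher and 0 lower with GC curves taken off. Epicardial markers summed to 52.0 to 59.4 CPM with scramble and 17.0 to 18.2 with the control lentivirus. Of 5 tested, however, 3 were called higher and 1 lower, or 2 and 2 with GC curves taken off. Endothelial and endocardial markers summed to 7.23 to 11.8 and 1.20 to 1.45, with 2 of 3 tested called lower. Neural markers summed to 17.8 to 19.1 and 38.9 to 42.8. Of 3 tested, 2 were called higher and 1 lower, or 1 and 1 with GC curves taken off. The part of these markers in the result was not tested.

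The fold changes of this comparison followed GC content. Over 14893 genes above 1 CPM the median ran from 0.58 for transcripts up to 40% GC to -1.91 for those above 65%, and r was -0.64. Over 32 collagens, whose GC content ran from 41.3% to 67.2%, r was -0.56 (Pearson, a description across genes). With library-wise GC curves taken off, 21 collagens were higher and 8 lower (69%, beside 57.2% of all genes), and 7 carried opposite calls in the fits (COL4A2, COL5A1, COL6A1, COL6A2, COL13A1, COL18A1 and COL23A1). In both fits 10 were higher, among them COL21A1, COL9A1, COL12A1 and COL4A5, whose corrected values were 2.41 (edgeR adjusted p 1.46e-11), 2.68 (edgeR adjusted p 1.48e-11), 2.45 (edgeR adjusted p 2.83e-13) and 1.11 (edgeR adjusted p 5.55e-08). In both fits 8 were lower, among them COL7A1, COL6A3 and COL1A2, whose corrected values were -1.23 (edgeR adjusted p 1.08e-09), -2.19 (edgeR adjusted p 7.1e-08) and -1.73 (edgeR adjusted p 5.11e-11).

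**Figure D4:**
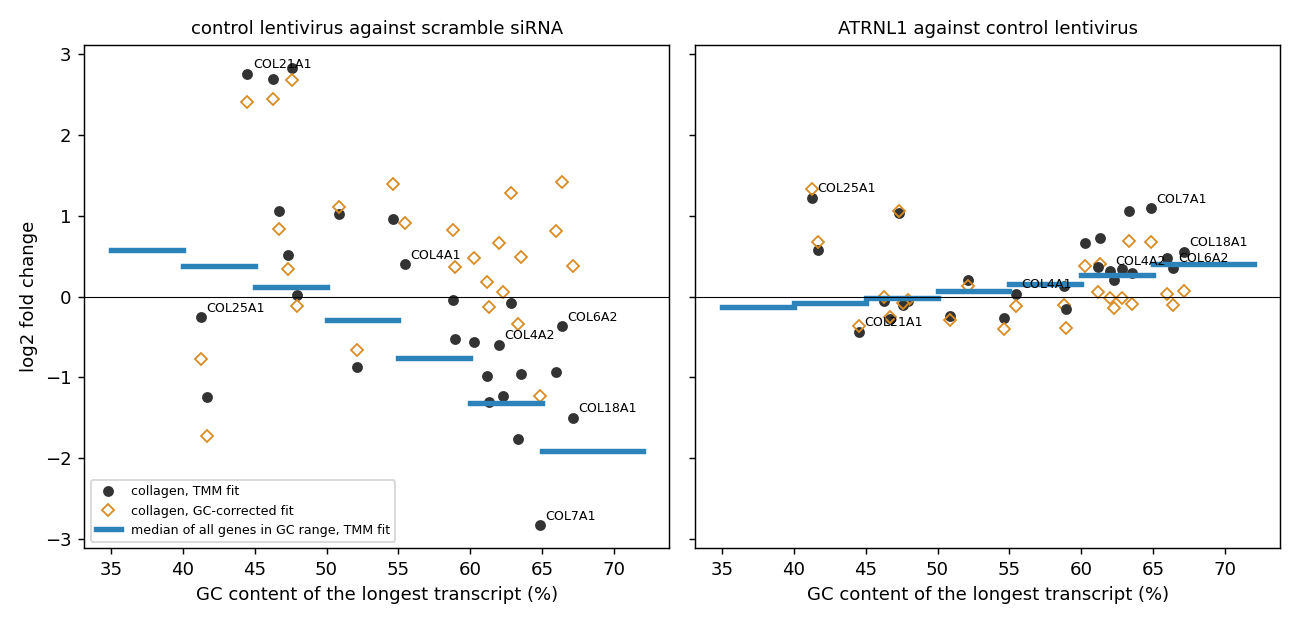
Log2 fold change of each collagen with a mean of at least 5 CPM against the GC content of its longest transcript, in the TMM fit (filled) and the GC-corrected fit (open), with bars at the median of all genes above 1 CPM in each GC range. For the control lentivirus against scramble the bars descend from 0.58 to -1.91; for overexpression they ascend from -0.13 to 0.41.

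Chain ratios within a library need no scaling between libraries, since both genes share its depth. With 3 libraries against 3, the smallest two-sided exact permutation p is 0.1, so ratios are given as values. COL4A5 to COL4A6, per kilobase, was 2.18 ± 0.0597 with scramble (SD, n = 3), 2.13 ± 0.0277 with siRNA-1, 2.18 ± 0.0686 with siRNA-2, 2.29 ± 0.0125 with the control lentivirus and 2.33 ± 0.117 with the ATRNL1 lentivirus. That ratio lay between 2.11 and 2.46 in all 15 libraries, while the level of COL4A5 ran from 124 to 366 CPM. COL4A1 to COL4A2 was 0.772 ± 0.00836, 0.638 ± 0.0124, 0.796 ± 0.0164, 1.54 ± 0.00555 and 1.27 ± 0.0878 in the same order. The siRNA-1 libraries lay below and the lentiviral libraries above all others. The GC content of COL4A1 is 55.4% and that of COL4A2 62.0%, and with GC curves taken off the control lentivirus against scramble gave 0.91 (edgeR adjusted p 2.15e-09) and 0.66 (edgeR adjusted p 4.62e-07), against 0.40 and -0.59 before.

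COL5A1 to COL5A2 was 3.07 ± 0.0268 with scramble, 3.89 ± 0.0886 with siRNA-1, 4.25 ± 0.0445 with siRNA-2, 2.04 ± 0.0935 with the control lentivirus and 3.37 ± 0.358 with the ATRNL1 lentivirus. Each siRNA library exceeded each scramble library, and each overexpression library exceeded its control. For the control lentivirus against scramble the lower ratio turned with GC curves taken off, where COL5A1 gave 0.48 (edgeR adjusted p 0.000301) and COL5A2 -0.11 (edgeR adjusted p 0.314), against -0.56 and 0.02 before. COL6A1 to COL6A2 was 4.90 ± 0.5001 with scramble, 4.16 ± 0.0377 with siRNA-1 and 3.25 ± 0.168 with siRNA-2, with no overlap of the groups. COL11A2 to COL11A1 was 13.1 ± 1.78 with scramble, 2.71 ± 0.393 with the control lentivirus and 2.76 ± 0.372 with overexpression. For the control lentivirus against scramble COL11A2 and COL11A1 gave -1.76 and 0.52, but -0.34 (edgeR adjusted p 3.04e-05) and 0.34 (edgeR adjusted p 0.0202) with GC curves taken off. COL1A1 to COL1A2 was 1.49 ± 0.200, 1.42 ± 0.0781, 1.45 ± 0.0878, 1.78 ± 0.255 and 1.51 ± 0.0464 in the order used above, and overlapped between the siRNA groups and scramble.

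**Figure D5:**
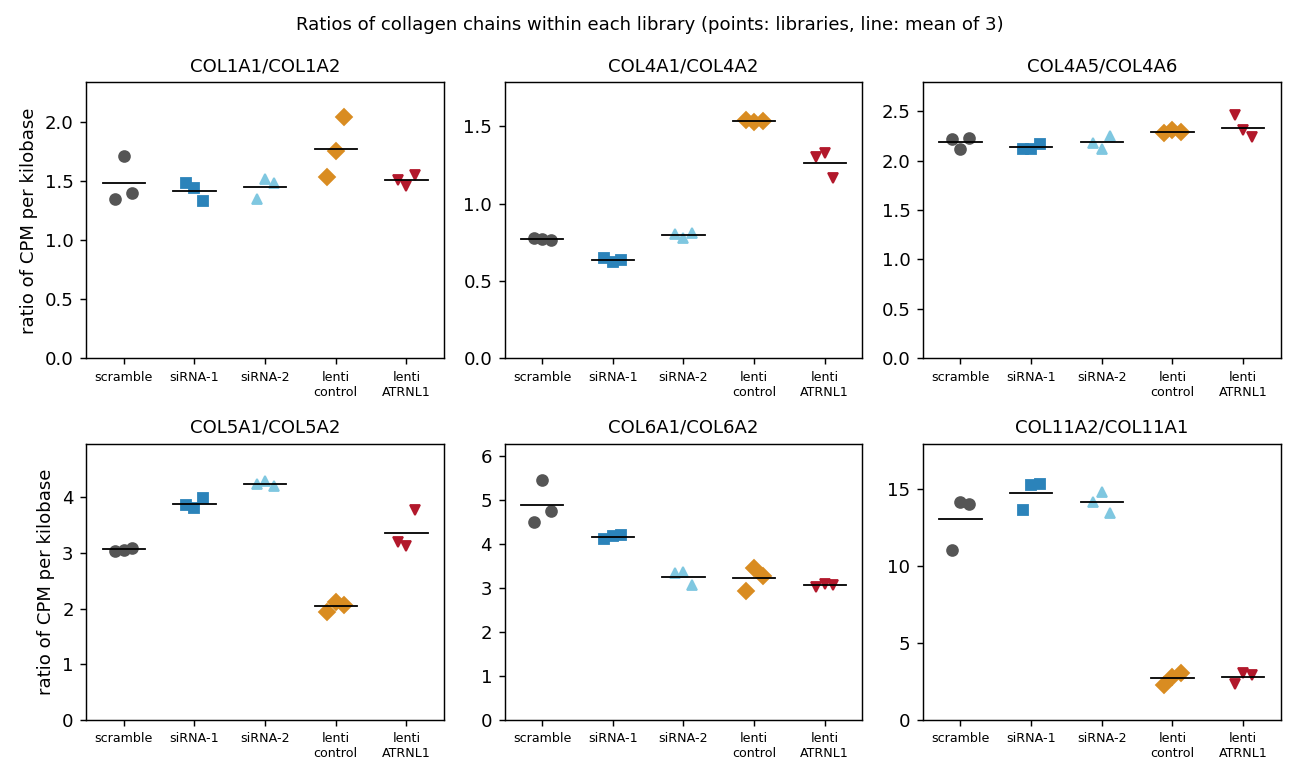
Ratio of the levels per kilobase of 6 pairs of collagen chains in each library (points) with the mean of 3 (line); the y axes are linear and start at 0. COL4A5/COL4A6 stays between 2.11 and 2.46, whereas COL4A1/COL4A2 is 0.772 on average with scramble and 1.54 with the control lentivirus.

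Collagen chains are hydroxylated and folded in the endoplasmic reticulum by a set of 19 enzymes and chaperones examined here. With overexpression 6 of the 19 rose and 3 fell, beside 19.1% and 18% of all genes, but 5 rose and 7 fell with GC curves taken off. With siRNA-1 2 rose and 4 fell, beside 5.85% and 3.76% of all genes, and with siRNA-2 4 rose and 5 fell, beside 9.64% and 8.48%. P4HA2, a prolyl hydroxylase subunit that stabilises the helix, stood at 53.6, 89.0 and 72.3 CPM across scramble, 53.1, 53.6 and 53.5 across siRNA-1, 40.3, 43.3 and 49.8 across siRNA-2, 21.6, 19.9 and 18.4 across control lentivirus and 52.7, 59.6 and 62.9 across ATRNL1 lentivirus libraries. Overexpression lay above its control in all libraries, and scramble library 2 was the highest of its group. P4HA2 gave 1.54 (SE 0.12, edgeR adjusted p 1.34e-10) with overexpression, -0.43 (SE 0.12, edgeR adjusted p 0.0176) with siRNA-1 and -0.69 (SE 0.12, edgeR adjusted p 9.08e-05) with siRNA-2. With scramble library 1 alone the siRNA values were -0.01 (edgeR adjusted p 0.992) and -0.28 (edgeR adjusted p 0.147), and the siRNA-1 call was also lost without siRNA-1 library 1, 2 or 3, or scramble library 2 or 3 (edgeR adjusted p up to 0.206). P4HA1, the other main subunit, gave 1.24 (SE 0.13, edgeR adjusted p 2.37e-08) with overexpression and -0.06 (SE 0.13, edgeR adjusted p 0.869) and -0.14 (SE 0.13, edgeR adjusted p 0.528) with the siRNAs. The lysyl hydroxylases PLOD1 and PLOD2 gave 1.33 (SE 0.08, edgeR adjusted p 1.67e-12) and 0.39 (SE 0.07, edgeR adjusted p 9.44e-05) with overexpression, and PLOD3 0.32 (SE 0.10, edgeR adjusted p 0.0136), which came to -0.0026 (edgeR adjusted p 0.985) with GC curves taken off. COLGALT2, which adds sugar to collagen, gave -0.52 (SE 0.08, edgeR adjusted p 2.1e-05).

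SERPINH1, the collagen-specific chaperone HSP47, stood at 111, 143 and 129 CPM across scramble, 105, 106 and 108 across siRNA-1, 105, 111 and 107 across siRNA-2, 51.7, 55.8 and 52.0 across control lentivirus and 50.5, 53.6 and 56.2 across ATRNL1 lentivirus libraries. It fell with both siRNAs, at -0.26 (SE 0.08, edgeR adjusted p 0.0264) and -0.25 (SE 0.08, edgeR adjusted p 0.0227), and gave 0.01 (SE 0.08, edgeR adjusted p 0.967) with overexpression. The siRNA-1 call was lost without siRNA-1 library 1, 2 or 3, or scramble library 2 or 3 (edgeR adjusted p up to 0.260) and the siRNA-2 call without siRNA-2 library 1 or 3, or scramble library 2 or 3 (edgeR adjusted p up to 0.192). Among 9 genes of collagen export, SEC24D, a coat protein of the vesicles that carry procollagen, stood at 33.9, 78.6 and 54.9 CPM across scramble, 27.5, 28.6 and 31.0 across siRNA-1, 28.1, 28.5 and 32.2 across siRNA-2, 38.6, 38.0 and 36.0 across control lentivirus and 33.9, 41.2 and 34.5 across ATRNL1 lentivirus libraries. It gave -0.95 (SE 0.16, edgeR adjusted p 0.000279) with siRNA-1 and -0.92 (SE 0.16, edgeR adjusted p 0.000155) with siRNA-2, below all scramble libraries, which ran from 33.9 to 78.6 CPM, and with scramble library 1 alone the values were -0.22 (edgeR adjusted p 0.464) and -0.21 (edgeR adjusted p 0.349). CREB3L1, a transcription factor of secretory load, rose by 1.35 (SE 0.21, edgeR adjusted p 1.4e-05) with overexpression and by 0.57 (SE 0.18, edgeR adjusted p 0.0259) with siRNA-2, the latter lost without siRNA-2 library 2 or 3, or scramble library 1 or 3 (edgeR adjusted p up to 0.114). SEC31A rose by 0.29 with overexpression, and SEC13 gave 0.04 (SE 0.08, edgeR adjusted p 0.754).

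Outside the cell, 7 of 14 processing and crosslinking genes rose and 3 fell with overexpression, beside 19.1% and 18% of all genes. With GC curves taken off 6 rose and 4 fell, and the median log2 fold change of the list went from 0.41 to 0.09. LOX, the oxidase that crosslinks collagen, stood at 4.47, 4.66 and 3.86 CPM across scramble, 5.36, 5.30 and 4.48 across siRNA-1, 4.89, 5.67 and 5.17 across siRNA-2, 3.97, 3.00 and 1.94 across control lentivirus and 11.5, 13.7 and 9.98 across ATRNL1 lentivirus libraries. The 3 ATRNL1 lentivirus libraries were above all 12 others. LOX gave 1.96 (SE 0.16, edgeR adjusted p 2.55e-10) with overexpression, and 0.23 (SE 0.16, edgeR adjusted p 0.475) and 0.28 (SE 0.16, edgeR adjusted p 0.242) with the siRNAs. The procollagen proteases ADAMTS2 and ADAMTS14 gave 1.51 (SE 0.18, edgeR adjusted p 2.39e-07) and 1.09 (SE 0.22, edgeR adjusted p 0.000267) with overexpression, and PCOLCE, which helps cleave the ends of procollagen, 1.64 (SE 0.20, edgeR adjusted p 4.2e-07). ADAMTS2 also rose with siRNA-2, by 1.22 (SE 0.15, edgeR adjusted p 2.25e-06). With siRNA-1 2 of these 14 rose and none fell, beside 5.85% and 3.76% of all genes, and with siRNA-2 5 rose and 1 fell, beside 9.64% and 8.48%.

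Of 11 tested turnover genes, 5 rose and 2 fell with overexpression, beside 37.1% of all genes called. With GC curves taken off 5 rose and 3 fell, and the median of the list went from 0.48 to 0.10. Of the same 11 genes 4 rose with siRNA-2, beside 9.64% higher. With siRNA-1 1 of them fell, near the background of 9.61%. MMP2, a gelatinase, gave 0.85 (SE 0.18, edgeR adjusted p 0.000591) with overexpression and TIMP1, an inhibitor of such enzymes, 0.53 (SE 0.10, edgeR adjusted p 9.63e-05) (0.33 with GC curves taken off). MRC2, the receptor that takes up cleaved collagen, rose by 0.60 (SE 0.11, edgeR adjusted p 0.000408) with siRNA-2 (0.30 with scramble library 1 alone, not called), and MMP1, a collagenase, gave 0.58 (SE 0.25, edgeR adjusted p 0.0703) with overexpression. Of 8 tested receptors, 3 fell with overexpression and none rose, a share near the 37.1% of all genes called, and with GC curves taken off 1 rose and 2 fell. With siRNA-1 2 rose and 2 fell, beside 9.61% of all genes, and with siRNA-2 2 rose and none fell, beside 18.1%. ITGA10, a collagen-binding integrin chain, stood at 6.23, 3.17 and 4.50 CPM across scramble, 7.33, 8.50 and 8.99 across siRNA-1, 12.0, 12.9 and 10.97 across siRNA-2, 11.5, 11.2 and 11.1 across control lentivirus and 6.86, 5.98 and 7.10 across ATRNL1 lentivirus libraries. Both siRNA groups lay above scramble and overexpression lay below its control, with 0.85 (SE 0.15, edgeR adjusted p 0.000275), 1.39 (SE 0.14, edgeR adjusted p 1.15e-07) and -0.76 (SE 0.14, edgeR adjusted p 7.19e-05) for siRNA-1, siRNA-2 and overexpression. With scramble library 1 alone the siRNA-1 value of ITGA10 was 0.41 (edgeR adjusted p 0.201). DDR2, a collagen receptor kinase, fell with siRNA-1, at -0.45 (SE 0.13, edgeR adjusted p 0.0245), a call lost without siRNA-1 library 1, 2 or 3, or scramble library 2 or 3 (edgeR adjusted p up to 0.251). The integrin chains ITGA1 and ITGB1 gave -0.37 (SE 0.12, edgeR adjusted p 0.0188) and -0.02 (SE 0.08, edgeR adjusted p 0.854) with overexpression, and the ITGA1 call was lost without control lentivirus library 2, or ATRNL1 lentivirus library 1 or 3 (edgeR adjusted p up to 0.130).

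Of 16 tested fibril partners, 8 rose and 1 fell with overexpression, beside 37.1% of all genes. With siRNA-1 2 rose and 2 fell, beside 9.61%, and with siRNA-2 4 rose and 2 fell, beside 18.1%. THBS1, a matrix glycoprotein that activates TGF-beta, stood at 223, 209 and 218 CPM across scramble, 136, 128 and 132 across siRNA-1, 113, 120.1 and 131 across siRNA-2, 153, 137 and 118 across control lentivirus and 237, 269 and 257 across ATRNL1 lentivirus libraries. It fell with both siRNAs, at -0.71 (SE 0.08, edgeR adjusted p 1.94e-06) and -0.83 (SE 0.08, edgeR adjusted p 6.36e-08), and rose with overexpression, at 0.90 (SE 0.08, edgeR adjusted p 2.18e-09). FN1, fibronectin, gave 0.40 (SE 0.08, edgeR adjusted p 0.000376), TNC, tenascin C, 1.02 (SE 0.19, edgeR adjusted p 9.49e-05) and FMOD, fibromodulin, 1.33 (SE 0.28, edgeR adjusted p 0.000398) with overexpression. Of 17 basement membrane partners, 5 rose and 4 fell with overexpression, beside 37.1% of all genes, and 4 rose and 5 fell with GC curves taken off. With siRNA-1 1 rose and 4 fell, beside 9.61%, and with siRNA-2 3 rose and 3 fell, beside 18.1%. With GC curves taken off 1 rose and 6 fell with siRNA-1, beside 13.1% of all genes called. For siRNA-2 that fit gave 3 higher and 7 lower, beside 22.2%. With overexpression HSPG2, perlecan, gave 1.04 (SE 0.11, edgeR adjusted p 2.61e-08), or 0.62 with GC curves taken off. In the same comparison LAMC3, a laminin chain, gave 1.83 (SE 0.31, edgeR adjusted p 4.27e-05). LAMA5 and AGRN gave 0.48 (SE 0.11, edgeR adjusted p 0.000641) and 0.60 (SE 0.11, edgeR adjusted p 0.000106) with overexpression. The last pair, a laminin chain and agrin, came to 0.02 (edgeR adjusted p 0.899) and 0.11 (edgeR adjusted p 0.356) with GC curves taken off.

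Of 15 TGF-beta pathway genes, 7 rose and 3 fell with overexpression, beside 37.1% of all genes. With each siRNA 3 rose and 2 fell, beside 9.61% of all genes for siRNA-1 and 18.1% for siRNA-2. TGFB3, a TGF-beta ligand, stood at 5.62, 2.86 and 4.08 CPM across scramble, 6.08, 6.46 and 5.22 across siRNA-1, 4.52, 4.19 and 4.10 across siRNA-2, 20.2, 20.8 and 19.7 across control lentivirus and 6.97, 7.06 and 6.48 across ATRNL1 lentivirus libraries. The control lentivirus libraries, at 19.7 to 20.8 CPM, were above all others, and overexpression gave -1.56 (SE 0.13, edgeR adjusted p 5.12e-10). TGFB1 gave 0.19 (SE 0.10, edgeR adjusted p 0.139), TGFBI, a secreted target of the pathway, 0.53 (SE 0.19, edgeR adjusted p 0.0279), and CCN2 (CTGF in the table), a target tied to fibrosis, -0.41 (SE 0.16, edgeR adjusted p 0.0453). The TGFBI call was lost without control lentivirus library 1 or 2, or ATRNL1 lentivirus library 2 or 3 (edgeR adjusted p up to 0.0838), and the CCN2 call without control lentivirus library 1 or 2, or ATRNL1 lentivirus library 1, 2 or 3 (edgeR adjusted p up to 0.230).

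Markers of other cells moved beside these results. With siRNA-1 and with siRNA-2, 2 of 5 tested fibroblast markers rose and 3 were not called. PDGFRA rose by 0.45 and 0.56 and POSTN by 0.97 and 0.64 on the log2 scale. Beside these counts, 5.85% of all genes were higher with siRNA-1 and 9.64% with siRNA-2. TCF21, DPT and FAP had levels near 0 CPM in each group, so no change in them could be read. Neural markers summed to 17.8 to 19.1 CPM with scramble, 31.7 to 41.2 with siRNA-1 and 28.8 to 29.1 with siRNA-2, and 2 of 3 tested (GAP43 and MAP2) rose with each siRNA, although TUBB3 and ELAVL4 did not pass the filter on low counts. Epicardial markers summed to 52.0 to 59.4 CPM with scramble and 69.0 to 70.3 with siRNA-1. With overexpression 2 of 3 tested endothelial and endocardial markers rose (NPR3 and EGFL7), and that list summed to 9.88 to 13.8 CPM against 1.20 to 1.45 with the control lentivirus, with PECAM1 and VWF at or below 0.0649 CPM on average in both groups. The cartilage list, led by SOX9, summed to 8.12 to 9.70 CPM with overexpression and 5.81 to 6.55 with its control, with 2 of 4 tested called higher. The share of all genes higher in that comparison was 19.1%. The epicardial list summed to 29.5 to 34.3 CPM with overexpression and 17.0 to 18.2 with its control. Of its 5 tested markers 2 were called higher and 2 lower, or 3 and 2 with GC curves taken off. The part of these markers in the collagen differences was not tested.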

How the data were processed

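RNA-seq of 15 libraries in 5 groups of 3 was deposited by the authors as 1 table of raw counts per gene. Per the labels' protocols, ribosomal RNA was depleted, although the labels also name the molecule polyA RNA. Per the submitters' processing notes, GRCh38, STAR 2.7.9a and DESeq2 1.30.1 were used, with no role given. No source used here names the counting tool or its strand setting. Columns were matched to groups by name, and no label says whether the libraries of a group are from separate cultures. Any p-value here thus covers the spread among these libraries alone, which may be technical. Rows with no gene identifier (649 of 59429) held 0.00157% to 0.00437% of counts and were left out.

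From the counts, TMM-scaled CPM, CPM per kilobase of merged GENCODE release 29 exons, and log2 fold changes were computed here. One edgeR 4.0.16 quasi-likelihood fit (limma 3.58.1, R 4.3.3) over all 5 groups, after filterByExpr, tested 24659 genes in 6 comparisons with Benjamini-Hochberg adjustment. The common biological coefficient of variation came to 8.24%, and the scripts were tested on simulated data. Alternatives were RLE size factors, library size only, no filter, DESeq2 1.42.0, only the groups compared, each library left out in turn and, added after the data were seen, 1 library fewer in every group, scramble library 1 alone, a replicate block on the running number of the column names, and GC-corrected offsets (loess, span 0.3). GC content is that of the longest transcript.

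The collagens and all gene lists were chosen with earlier results of these data known. Levels per library are printed for collagens with a mean of at least 5 CPM called in at least 1 comparison and for their chain partners. From each other list up to 4 genes of at least 1 CPM with the largest called fold change in any comparison are named, plus LOX, SERPINH1, P4HA1, P4HA2 and PLOD2. Promoter windows come from RefSeq (GRCh38.p14) and matched 32 of 44 collagens.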

Additional observations from a re-analysis of the deposited data

Results flagged for a closer look

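These collagens are given because the difference between treatments was itself tested and passed with edgeR's quasi-likelihood test (Benjamini-Hochberg adjusted p under 0.05). Values are log2 differences.

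In the effect of overexpression less the mean effect of the siRNAs, fibrillar COL11A1 stood at 1.00, COL2A1 at 0.90, COL11A2 at 0.87, COL27A1 at 0.72, COL5A1 at 0.48, COL1A2 at 0.42 and COL3A1 at 0.35, with COL24A1 at -2.18. Among FACIT genes COL21A1 stood at -1.83, COL9A1 at -1.31, COL19A1 at -0.96, COL14A1 at -0.71 and COL22A1 at -0.32. Of the basement membrane chains COL4A2 stood at 0.33, COL4A5 at -0.57 and COL4A6 at -0.62. COL8A1 stood at 1.34, COL6A3 at 1.31, COL7A1 at 1.17, COL25A1 at 0.79, COL23A1 at 0.38 and COL6A2 at -0.42.

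In the siRNA-1 effect minus the siRNA-2 effect, COL2A1 stood at 0.74, COL14A1 at 0.62, COL25A1 at 0.34 and COL1A1 at 0.31. COL15A1 stood at -0.82, COL6A2 at -0.68, COL22A1 at -0.67, COL9A1 at -0.61, COL16A1 at -0.50, COL21A1 at -0.47, COL27A1 at -0.43, COL5A1 at -0.41, COL18A1 at -0.40, COL4A1 at -0.35 and COL6A1 at -0.32.

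With GC curves taken off, 3 of the differences between overexpression and the siRNAs were no longer called by edgeR's quasi-likelihood test: COL4A2 came to 0.016 (adjusted p 0.934), COL5A1 to 0.22 (adjusted p 0.215) and COL23A1 to -0.039 (adjusted p 0.855). Between the siRNAs COL18A1 came to -0.28 (adjusted p 0.101) in that fit.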

How the results depend on the processing

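Several choices moved the counts of calls. With no filter on low counts 14 collagens were called with siRNA-1 (9 higher, 5 lower) against 9. With only the 2 groups compared in the fit, siRNA-1 against siRNA-2 gave 24 collagens (6 higher, 18 lower) and 4914 genes, against 15 and 2499. With 1 library fewer in every group, an alternative chosen after the data were seen, as were those with scramble library 1 alone and with GC correction, the collagens called were 2 with siRNA-1, 8 with siRNA-2, 4 between the siRNAs, 12 with overexpression and 14 in the difference of overexpression and mean knockdown effects. The genes called were then 433, 1381, 459, 5165 and 4055. With scramble library 1 alone, 5 collagens and 568 genes were called with siRNA-1, 9 and 1803 with siRNA-2, and 4886 genes in the difference of effects; here scramble is assumed to vary like the other groups.

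Leaving out 1 library at a time gave 5 to 13 collagens and 1420 to 2984 genes with siRNA-1, with 5 without siRNA-1 library 2 or scramble library 3, and 1420 without scramble library 3. It gave 10 to 19 and 3113 to 4592 with siRNA-2, 9 to 12 and 1432 to 1700 between the siRNAs, and 18 to 21 and 7715 to 9344 with overexpression. For the control lentivirus against scramble it gave 30 to 34 and 14454 to 15437, and for the difference of effects 19 to 26 and 6820 to 8506.

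GC correction turned the direction of 20 called values of named genes. With overexpression COL4A2 came to -0.014, COL6A1 to -0.091, COL6A2 to -0.10, COL16A1 to -0.015 and PLOD3 to -0.0026. For the control lentivirus against scramble COL4A2 came to 0.66, COL6A1 to 0.49, COL6A2 to 1.42, COL9A2 to 0.11, COL9A3 to 0.20, COL1A1 to 0.18, COL2A1 to 0.058, COL5A1 to 0.48, COL18A1 to 0.38, COL13A1 to 0.36, COL23A1 to 0.81, MRC2 to 0.21, TGFB1 to 0.016 and PLOD2 to -0.59. In the difference of effects COL23A1 came to -0.039. It also changed the split of collagens to 10 higher and 7 lower with overexpression, to 21 and 8 for the control lentivirus against scramble and to 10 and 12 in the difference of effects, and that of genes with siRNA-1 from 1443 and 927 to 1603 and 1618. The cause of these shifts was not tested. For the control lentivirus against scramble, PLOD2 came to -0.021 on library size only, SEC24D to 0.12 with scramble library 1 alone, and COL20A1 to 4.08 there, where that library holds no COL20A1 count.

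Scaling by library size only moved the median of all genes for the control lentivirus against scramble from -0.06 to -0.26 and its split from 7480 higher and 8195 lower to 5791 and 10045. It moved the split with siRNA-2 from 2378 and 2092 to 3489 and 1486, and that between the siRNAs from 1382 and 1117 to 1045 and 2054. DESeq2 gave 17 collagens higher and 2 lower with overexpression. Of 7196 alternative values for 450 fold changes of named genes, 23 changed direction, 437 lost and 157 gained a call, and 6579 kept side and direction. The labels share no replicate numbers between groups, but the column names end in a running number from 1 to 3. In the pairs of groups compared directly, same-numbered libraries deviated together with r from -0.16 to 0.21 over 14895 genes. This r was above 0.1 in at most 1 of 3 library pairs of each such comparison, and other pairs of groups were not checked. The running numbers were not taken as pairs. With this number as a replicate block, added after the data were seen, 8 collagens and 2336 genes were called with siRNA-1, 16 and 4421 with siRNA-2, 15 and 2474 between the siRNAs, 22 and 9065 with overexpression, 31 and 15577 for the control lentivirus against scramble and 22 and 7766 in the difference of effects. At this depth, collagens under 1 CPM rest on few reads, and differences among them may not be detectable.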
